A study of Mus musculus with 4 samples.

Results

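Dense chains are runs of neighbouring accessible chromatin intervals in macrophages of the mouse brain. They were found in the authors' list of merged ATAC-seq peaks by joining consecutive intervals on chromosomes 1 to 19 whenever their centres lay at most 12.5 kb apart, and keeping chains of 10 or more members. The rule left 978 dense chains out of 25499 chains (3.84%). They held 13292 of the 72875 merged intervals on these chromosomes (18.2%) and of 74695 intervals in all. The members were thus chosen by measured values, the positions of the called peaks, and member number, spacing and chain length are given below as descriptions of what was selected.

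Brain parenchymal macrophages had been sorted and profiled by Omni-ATAC, in which the Tn5 transposase inserts adapters into open chromatin, and the series had 2 groups of 2 libraries. The series title speaks of monocyte-derived macrophages, and MDM was taken as their short form, while YSM is not spelled out in the labels. Both groups shared the genotype Ms4a3-Ai9 and the treatment label DR-3x. Progenitors of granulocytes and monocytes express Ms4a3, and Ai9 makes cells fluoresce red after Cre recombination. The labels say neither what DR-3x is nor how many animals gave the libraries. The authors' MDM list had 108 intervals and their YSM list 1104, of which 108 and 1094 lay on chromosomes 1 to 19. By its name, each list was taken to hold intervals with greater accessibility in the named group. All 1212 listed intervals had the coordinates of a merged interval. No value per library entered this work, so the error between replicates is not known, and library depth was not analysed here.

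Enhancers that control the identity genes of a cell type often lie in clusters, and stitching neighbouring sites is the first step by which such clusters, called super-enhancers, are usually found. The second step ranks the stitched clusters by the signal of a histone mark or a coactivator. In macrophages and microglia, such clusters are known at genes for lineage transcription factors and surface receptors. Here the second step was not possible, because the intervals carry no signal. The dense chains are therefore clusters by position, and whether they behave as super-enhancers was not tested.

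Promoter windows of 5 genes, picked by hand, are printed as examples of annotated starts overlapped by dense-chain intervals, and are not a representative sample. Each window runs from 250 bases before to 50 bases after the annotated start, 300 bases in all, and is given on the strand of the gene from RefSeq, build GRCm38.p6. The first is overlapped by an MDM-listed interval, the next 2 by YSM-listed intervals, and the last 2 come from a macrophage transcription factor and a microglial receptor whose dense intervals were in neither list. Ifi47, an interferon-inducible GTPase, has its window at chr11:49076337-49076636 on the plus strand. Adgrg1, an adhesion G protein-coupled receptor of microglia, has its window at chr8:94984149-94984448 on the plus strand. The interval over this window was centred inside the gene, more than 1000 bp from either gene end. The window thus belongs to an annotated start within the gene. Tppp, a tubulin polymerisation protein best known from oligodendrocytes, has its window at chr13:74009169-74009468 on the plus strand. Irf8, a transcription factor needed for monocytes and microglia, has its window at chr8:120736108-120736407 on the plus strand, and P2ry12, the purinergic receptor used to mark microglia, at chr3:59262936-59263235 on the minus strand. Capitals mark matches on either strand to the letters GAGGAAGT (PU.1), TGANTCA (AP-1), GAAANNGAAA (interferon-stimulated response element) or TTGCNNAA (C/EBP).
Ifi47: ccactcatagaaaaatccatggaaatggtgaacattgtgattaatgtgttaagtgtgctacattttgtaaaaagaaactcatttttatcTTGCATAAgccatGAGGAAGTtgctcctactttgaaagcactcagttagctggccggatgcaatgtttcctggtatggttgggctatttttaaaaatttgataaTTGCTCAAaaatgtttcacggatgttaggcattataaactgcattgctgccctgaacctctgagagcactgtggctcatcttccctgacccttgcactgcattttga
Adgrg1: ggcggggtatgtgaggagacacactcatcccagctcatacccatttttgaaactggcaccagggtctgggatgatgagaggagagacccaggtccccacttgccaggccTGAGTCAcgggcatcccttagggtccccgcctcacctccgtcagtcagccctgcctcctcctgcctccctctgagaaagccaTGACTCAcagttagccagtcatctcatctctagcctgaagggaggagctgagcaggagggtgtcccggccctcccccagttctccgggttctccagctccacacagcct
Tppp: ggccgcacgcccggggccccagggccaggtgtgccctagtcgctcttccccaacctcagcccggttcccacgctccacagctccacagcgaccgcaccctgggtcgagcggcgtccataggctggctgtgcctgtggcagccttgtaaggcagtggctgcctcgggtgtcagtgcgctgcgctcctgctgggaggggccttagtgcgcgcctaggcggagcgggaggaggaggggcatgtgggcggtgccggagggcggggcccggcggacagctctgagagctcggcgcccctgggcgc
Irf8: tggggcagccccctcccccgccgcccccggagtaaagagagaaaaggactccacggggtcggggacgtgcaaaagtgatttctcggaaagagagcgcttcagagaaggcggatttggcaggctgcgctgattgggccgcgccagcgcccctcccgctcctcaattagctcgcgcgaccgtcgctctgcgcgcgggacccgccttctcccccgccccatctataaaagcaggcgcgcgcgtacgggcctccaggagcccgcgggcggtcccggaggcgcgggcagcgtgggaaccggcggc
P2ry12: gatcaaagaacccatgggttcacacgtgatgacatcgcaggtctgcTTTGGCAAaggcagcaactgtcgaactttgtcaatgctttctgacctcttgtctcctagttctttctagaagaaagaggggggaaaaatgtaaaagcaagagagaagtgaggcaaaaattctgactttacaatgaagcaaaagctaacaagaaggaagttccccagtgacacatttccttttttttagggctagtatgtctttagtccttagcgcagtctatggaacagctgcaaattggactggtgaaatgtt

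The Ifi47 window holds 3 matches, to C/EBP, PU.1 and C/EBP in that order, and the Adgrg1 window holds 2 to AP-1. The P2ry12 window holds 1 match to C/EBP, and no match to these letters lies in the Tppp and Irf8 windows. The windows of Cebpb and Cx3cr1, also looked up and not printed, held no match either. In the Irf8 window 70% of bases were G or C with 38 CpG dinucleotides, and in the Ifi47 window 39.3% with 2. Of 31365 windows on chromosomes 1 to 19, 1618 were overlapped by a dense-chain interval, 10144 by another merged interval and 19603 by none. The 31365 windows belonged to 25720 genes and the 1618 to 1390 genes. Several starts of 1 gene can thus enter, and windows are not independent. The median GC content was 61.5% in the dense-chain windows, 62% in the windows of other intervals and 48.7% in windows without an interval, with medians of 20, 22 and 4 CpG dinucleotides. The PU.1 letters are the motif of the ETS factor that directs macrophage development. They stood in 5.32% of dense-chain windows (86), 3.54% of windows with another interval, 2.93% of windows with none and 3.25% of all windows. The AP-1 letters stood in 5.32%, 4.45%, 9.82% and 7.85% of the same 4 sets, the C/EBP letters in 9.02%, 7.68%, 12.7% and 10.9%, and the interferon-response letters in 2.90%, 3.13%, 3.65% and 3.45%. None of these motifs contains another, partial overlaps between them were not removed, and a letter match is not a bound site.

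Dense chains had a median of 12 members (quartiles 11 and 15), and 522 of them (53.4%) had 10 to 12. The longest run had 36 members, and 87 chains had 20 or more. Just outside the threshold, 326 chains had exactly 9 members, and just inside it 212 had exactly 10, so the threshold cuts a steady decline in chain number. Single intervals made up 10677 chains. The dense chains spanned 19.1 to 179 kb with a median of 54.5 kb. Mean spacing between centres ran from 1936 to 8275 bp per chain, with a median of 4704 bp. Intervals covered a median of 6.09% of a chain's span (3.49% to 14%), and all dense chains together spanned 58.6 Mb with 3.54 Mb in intervals. Chains with more members were longer (Pearson r = 0.861 across the 978 chains, which the rule fixes in part), and member number was only loosely related to the number of protein-coding genes overlapped (r = 0.254).

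**Figure D1:**
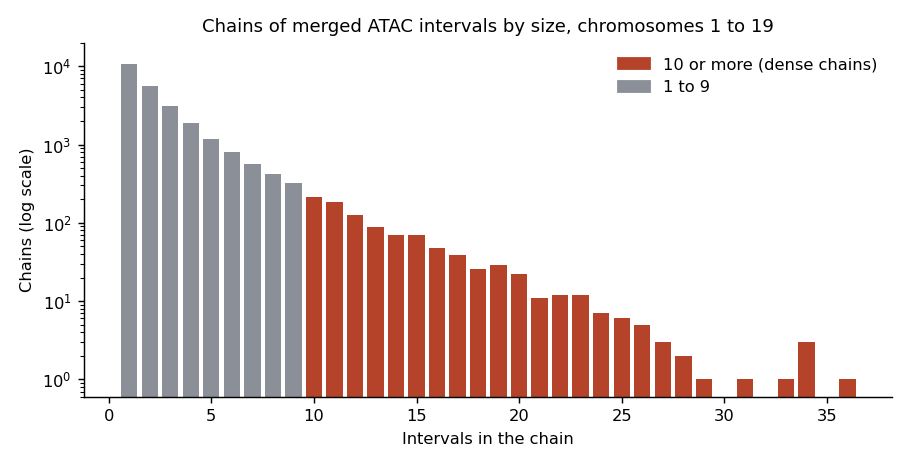
Number of chains (log scale) by the number of merged intervals in the chain, on chromosomes 1 to 19. Dense chains of 10 or more intervals, the largest with 36, continue the decline of the chains of 1 to 9, from 10677 chains of 1 interval to 326 of 9 and 212 of 10.

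The largest chain lay at Rcsd1, which encodes a protein that binds actin capping protein, at chr1:165634403-165781660. It joined 36 intervals over 147 kb and also covered Mpzl1, Creg1 and Cd247, the zeta chain of the T cell receptor. A chain at Poc1a, a centriolar protein gene, was the longest of all at 179 kb (chr9:106192960-106372104) with 34 intervals, and covered Tlr9, an endosomal sensor of DNA, and Twf2, an actin-binding twinfilin. Capzb, which encodes the beta subunit of actin capping protein, had a chain of 34 intervals at chr4:139156424-139310932. Dock4, an exchange factor for the small GTPase Rac, also had 34, and Ankrd11, a chromatin regulator, had 33 that were all assigned to that gene. The next in size were Cxxc5 with 31 members, Fnbp1, a membrane-bending F-BAR protein gene, with 29, Arhgap27 and the splicing regulator Mbnl1 with 28 each, and Lmna (the nuclear lamin A/C), Lrp1 (an endocytic receptor) and Coro1a (an actin-binding coronin of leukocytes) with 27 each. These 12 chains had 368 members, of which 0 were MDM-listed (exact upper bound 0.997%, with 0.135% in all dense chains and 0.148% over all intervals). YSM-listed members numbered 8, or 2.17% (exact 95% range 0.943% to 4.24%), with 0.617% in all dense chains and 1.50% over all intervals. They lay in 5 of the chains, 3 at Capzb, 2 at Cxxc5, and 1 each in those named for Poc1a, Dock4 and Lmna. The last 3 intervals were assigned to Alas1, Zfp277 and Mex3a.

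The shortest spacing was found in other places. A chain inside Tbc1d22a had 12 members with a mean spacing of 1936 bp, and 11 of these had at most 3 subpeaks. Subpeaks are the library-level peaks that the authors merged into an interval, so that an interval with at most 3 lacked a called peak in at least 1 of the 4 libraries. Pknox1, a homeobox gene, Mepe, Clmp, an adhesion molecule gene, and a chain without a protein-coding gene on chromosome 8 followed, with mean spacings of 1969, 2095, 2405 and 2462 bp.

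Members of dense chains carried a sum of 17 to 136 subpeaks per chain, with a median of 42. Intervals with at most 3 subpeaks made up 38.3% of dense-chain members, against 43.1% of intervals in chains of 1 to 9. Exactly 4 subpeaks, the number given when each library contributes 1 peak, were found in 51.2% of dense-chain members, against 45.4%. Interval width hardly differed, with medians of 236 bp in dense chains and 235 bp in the others. Every member had 4 or more subpeaks in 5 chains. These lay at Fam178b with 17 members and, with 10 members each, at Itgb2 (the beta 2 integrin of leukocytes), Tlcd1, Mapkapk3 and Cx3cr1, the fractalkine receptor of microglia. In 1 chain, on chromosome 8 and described below, no member had more than 3.

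**Figure D2:**
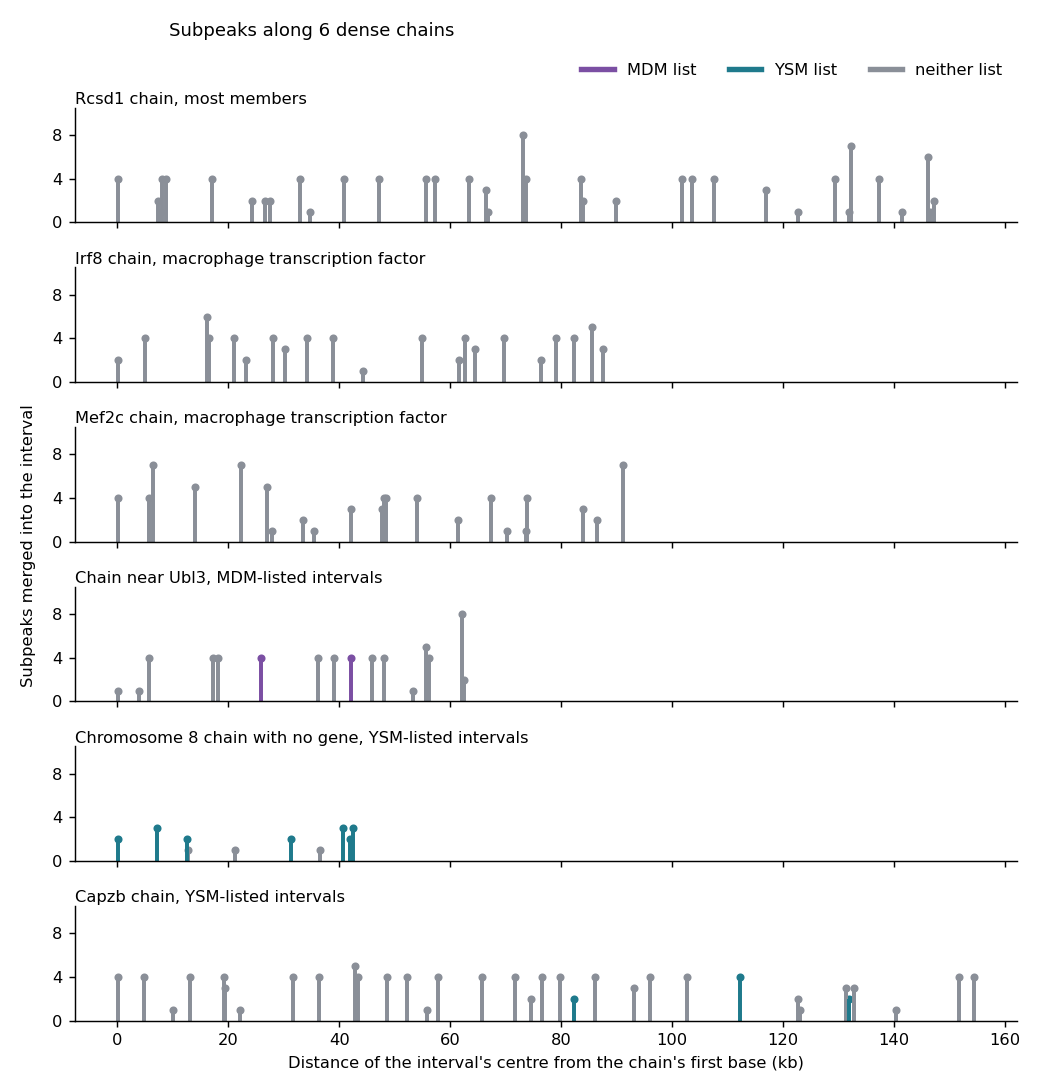
Subpeaks merged into each interval (vertical axis) against the distance of its centre from the first base of the chain in kb (horizontal axis), for 6 dense chains, coloured by list. The 7 YSM-listed intervals of the chromosome 8 chain have 2 or 3 subpeaks, the 2 MDM-listed intervals near Ubl3 have 4, and the Rcsd1, Irf8 and Mef2c chains hold no listed interval.

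Dense chains lay mostly within and between genes. By its centre, 18.0% of dense-chain intervals fell within 1000 bp of either end of a protein-coding gene, 52.2% inside a gene and 29.8% outside genes, against 22.1%, 44.5% and 33.4% of intervals in chains of 1 to 9. Intervals with no protein-coding gene within 100000 bp made up 1.59% of dense-chain members and 5.29% of the others. The first and last members of dense chains lay at gene ends in 21.4% of cases, and interior members in 17.5%. No member lay at a gene end in 259 chains (26.5%), and 157 chains (16.1%) lay wholly inside 1 gene. A chain overlapped 1 protein-coding gene in 402 cases, 2 to 4 in 401, 5 or more in 101 and none in 74. The most genes, 21, were overlapped by a chain of 12 members in the protocadherin gamma cluster on chromosome 18, whose genes overlap each other. A chain over histone genes at chr13:23516979-23598210 overlapped 15 genes, and 14 of its 22 members lay at gene ends.

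The YSM list was thinly represented in dense chains. It held 82 of 13292 dense-chain intervals, 0.617% (exact 95% interval 0.491% to 0.765%), against 1012 of 59583 intervals in chains of 1 to 9, 1.70% (1.60% to 1.81%), with 1.50% over all intervals on these chromosomes. The MDM list held 18 dense-chain intervals, 0.135% (0.0803% to 0.214%), against 90 in the other chains, 0.151% (0.121% to 0.186%), with 0.148% over all. These 95% ranges do not overlap for the YSM list and do for the MDM list. They are exact Clopper-Pearson bounds that cover counting only. Neighbouring peaks are not independent and libraries were not compared, so no test was made.

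The YSM-listed share was lower at each step of chain size. It was 2.54% in chains of 1, 1.78% in chains of 2 to 4, 1.16% in chains of 5 to 9 and 0.617% in dense chains. Next to the threshold it was 0.619% in chains of exactly 8, 0.579% in chains of exactly 9, 1.13% in chains of exactly 10 and 0.590% in chains of exactly 11. The exact 95% ranges at 9 (0.338% to 0.926%) and at 10 (0.727% to 1.68%) overlap, and 7 of the 24 listed intervals in chains of exactly 10 lay in 1 chain. Chains of 20 or more held 16 YSM-listed intervals among 2027 (0.789%). The MDM-listed share was 0.159%, 0.154%, 0.143% and 0.135% at the same 4 steps, and chains of 20 or more held none. Seen from the lists, 16.7% of MDM-listed intervals, 7.50% of YSM-listed intervals and 18.4% of intervals in neither list lay in dense chains. Intervals alone in their chain were 15.7% of the MDM list and 24.8% of the YSM list. A listed interval can itself lengthen a chain. Chains were therefore also built from unlisted intervals, with listed ones added afterwards. The YSM share was then 0.340% in dense chains against 1.75% in the others. The MDM share was 0.0541% against 0.169%, with 7 MDM-listed intervals in dense chains. Listed intervals did not count towards the minimum of 10 members in this setting, which by construction lowers their share in dense chains. With intervals of at least 4 subpeaks alone, the YSM share was 0.180% against 0.756% (3 of 1670 intervals in dense chains), and the MDM share was 0.240% against 0.225%.

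**Figure D3:**
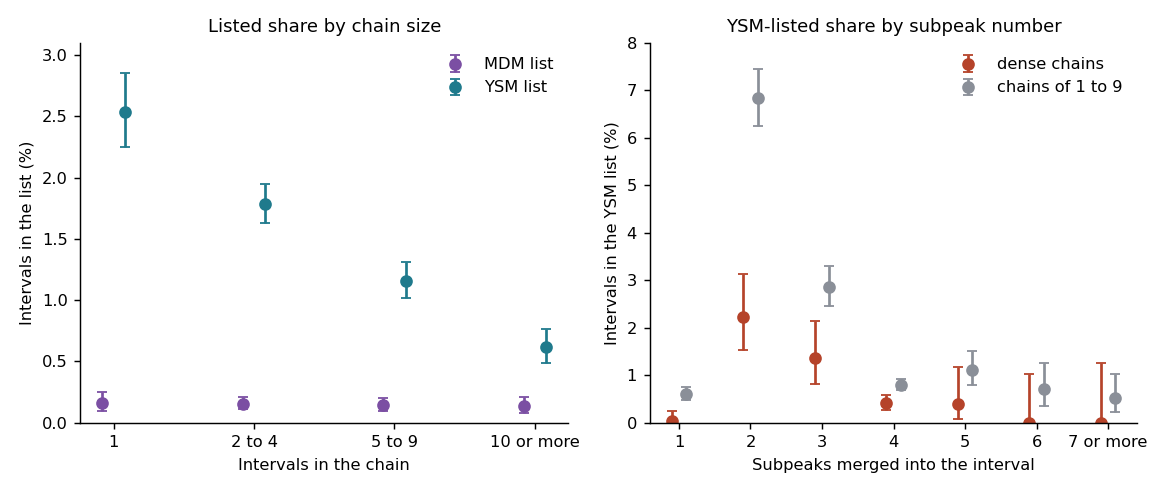
Share of intervals in the MDM and the YSM list (%) by number of intervals in the chain (left), and share in the YSM list by number of subpeaks in dense chains and in chains of 1 to 9 (right). Points are shares and bars exact 95% binomial intervals. The YSM share is 2.54% in chains of 1 and 0.617% in dense chains, and at 2 subpeaks it is 2.22% in dense chains and 6.83% in the others.

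Subpeak number differed with the list and with the chain size, and the YSM share is therefore also given within each number. With 1 subpeak it was 0.0428% in dense chains (1 of 2335 intervals) and 0.606% in chains of 1 to 9 (75 of 12378). With 2 subpeaks it was 2.22% in dense chains (32 intervals) and 6.83% in chains of 1 to 9 (480 intervals). With 3 it was 1.37% and 2.86%, with 4 it was 0.411% and 0.802%, and with 5 it was 0.402% and 1.11%. None of 355 dense-chain intervals with 6 subpeaks was YSM-listed (exact upper bound 1.03%), against 0.702% of the others. With 7 or more, 0 of 293 were listed in dense chains (upper bound 1.25%), against 0.527%. By position, the YSM share was 0.250% in dense chains against 0.865% in other chains at gene ends, 0.749% against 2.08% inside genes, and 0.607% against 1.74% outside genes. For MDM-listed intervals, 12 of the 18 in dense chains lay outside genes (0.303% of such members, against 0.231% in other chains), 5 inside genes and 1 at a gene end. Of the 82 YSM-listed members, 52 lay inside genes, 24 outside and 6 at gene ends.

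By chromosome, the YSM share was lower in dense chains than in other chains on all 19 autosomes, and the MDM share on 10. Chromosome 11 had the highest share of its intervals in dense chains, 25% in 105 chains, and chromosome 16 the lowest, 12.6%. Chromosome 14 showed the widest gap in the YSM list, with 1 listed interval of 411 in dense chains (0.243%) against 80 in its other chains (3.39%). Chromosome 8 held 13 YSM-listed dense-chain intervals (1.66%), against 2.89% in its other chains, and 7 of these 13 belonged to 1 chain.

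**Figure D4:**
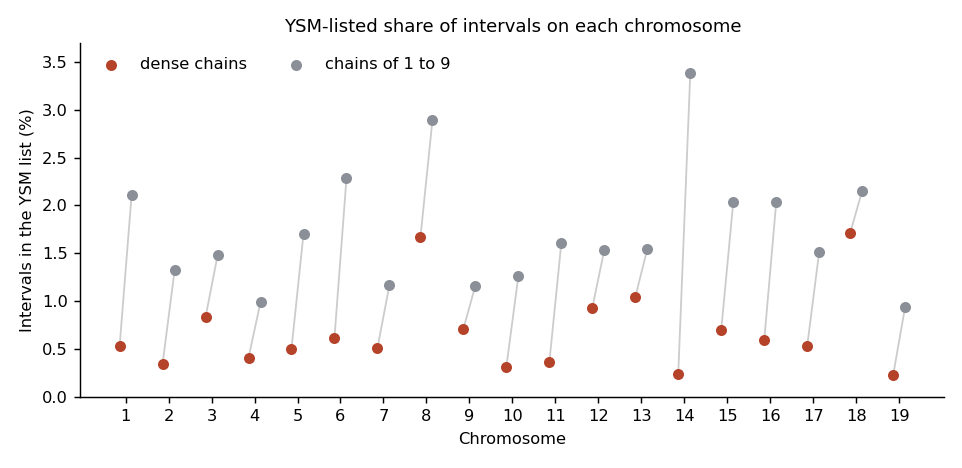
Share of intervals in the YSM list (%) on each of chromosomes 1 to 19, in dense chains and in chains of 1 to 9, joined by a line. The dense-chain share is the lower one on all 19, with 0.243% against 3.39% on chromosome 14 and 1.66% against 2.89% on chromosome 8.

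Neither list touched most dense chains. YSM-listed intervals occurred in 62 chains, with 1 listed member in 52 of them, and MDM-listed intervals in 15, with 1 in 12 of them. The other 901 chains (92.1%) held none, and 0 held both kinds. YSM-listed intervals thus touched 6.34% of dense chains and MDM-listed intervals 1.53%, so that few shared chains could arise in any case. The absence of shared chains is a count only, and was not compared with chains of other sizes. The listed members were adjacent to each other in 1 MDM pair and 10 YSM pairs.

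The chain with most YSM-listed intervals lay on chromosome 8 at chr8:8952215-8994889, where 7 of 10 members were listed. It overlapped no annotated gene, and the nearest protein-coding gene, Fam155a, lay 211117 bp away. The listed members had 2 or 3 subpeaks each, and the other 3 had a single subpeak each, so that the whole chain had 20 subpeaks. Without this chain, 75 YSM-listed intervals remained in dense chains, 0.565% of the members. In the chain at Tppp, whose promoter window is printed above, 3 of 10 members were YSM-listed. These lay at chr13:74000730-74000975, chr13:74009214-74009590 over the gene start, and chr13:74010547-74010888 inside the gene. A chain 45011 bp from Pag1, which encodes a membrane adaptor of Src-family kinase signalling, also had 3 of 10, next to each other. Arhgef7, an exchange factor for Rac and Cdc42, had 3 of 13, and the chain named for Hnrnpul1, an RNA-binding protein gene, had 3 of 23 and covered Axl, a receptor for the uptake of dying cells. Capzb had 3 of 34, all inside the gene. The chains at Ak1 (with Eng, a co-receptor of TGF-beta), Map4k4, Ttc7 and Cxxc5 had 2 each, among 10, 11, 12 and 31 members. The Adgrg1 chain, which also covers Adgrg5 and Adgrg3, had 1 of 19, the interval at chr8:94984022-94984266 with 4 subpeaks, which overlaps the promoter window printed above.

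MDM-listed intervals were found 2 to a chain in 3 places, and 2 of these chains had no protein-coding gene. One was chr13:97501624-97584453 with 16 members, 248584 bp from Enc1, and the other chr14:120727075-120762997 with 11 members, 133843 bp from Ipo5, whose 2 listed intervals were neighbours. A further one reached into Ubl3, a membrane-anchored ubiquitin-like protein gene, at chr5:148447348-148509912, with 16 members and 2 listed intervals that lay outside the gene, 15174 and 31358 bp from it. The 12 chains with 1 MDM-listed interval included Fam178b (17 members), Stambpl1 with Acta2 (14), Ola1 (13), Ifi47 (12), Frmd6, Ccdc125 and Siglece (11 each). The chains named for Ola1 and Frmd6 overlapped no protein-coding gene and lay 23124 and 86525 bp from these genes. The listed interval of the first lay 54260.5 bp from Ola1. That of the second had no protein-coding gene within 100000 bp, and 2 of the 11 members were assigned to Frmd6. Siglece encodes an inhibitory receptor that binds sialic acid, but the listed interval of its chain lay inside Ceacam18. Of the 11 members of that chain, 5 were assigned to Siglece. The Ifi47 chain covered Ifi47 and Tgtp2, both interferon-inducible GTPase genes, and its listed interval, chr11:49076285-49076665 with 5 subpeaks, spanned the promoter window printed above. The 74 chains without a protein-coding gene held 9 of the 18 MDM-listed members, 1.04% of their 868 intervals, and 12 YSM-listed members (1.38%). Chains over 1 gene held 3 MDM-listed (0.0563%) and 26 YSM-listed members (0.488%), chains over 2 to 4 genes 6 (0.109%) and 39 (0.706%), and chains over 5 or more genes 0 and 5 (0.318%). The largest chains without a protein-coding gene lay near Zfp36l2 (18 members), an RNA-decay factor gene, and Id2 (17), an inhibitor of basic helix-loop-helix factors.

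Among genes, 2249 of the 14814 with a merged interval had at least 1 in a dense chain (15.2%). Each interval was assigned to the nearest protein-coding gene within 100000 bp of its centre. Genes with more intervals were more often held, which the rule fixes in part, since it keeps runs of 10 or more intervals. The share was 8.49% for genes with 1 interval, 10.3% for genes with 2, 12.4% for genes with 3 to 4 and 18.2% for genes with 5 to 9. It was 31.9% (431 of 1349) for genes with 10 to 19 and 57.6% (228 of 396) for genes with 20 or more. Bach2, a transcriptional repressor best known from lymphocytes, had most dense-chain intervals, 41 of its 60 in 3 chains. Elmo1, which works with Dock proteins in the engulfment of cells, had 37 of 64 in 2 chains, and Prex1, another Rac exchange factor gene, 33 of 43 in 3 chains. Irf8 had 28 of 28, in a chain of 21 members that spanned the gene and a chain of 13 beyond its 3′ end.

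The share of genes held by dense chains differed between gene lists, against 15.2% of all genes, whose median was 3 intervals per gene. The number of intervals per gene differed between lists, and its part in these shares was not tested. Of chemokines and their receptors, which guide leukocyte movement, dense chains held 12 of 17 genes with intervals (70.6%, median 6 intervals per gene). The list of Fc, B-cell-type and integrin signalling genes had 27 of 41 (65.9%, median 13), antigen presentation genes 10 of 16 (62.5%, median 4), macrophage and microglia markers 11 of 21 (52.4%, median 5), and macrophage transcription factors 28 of 54 (51.9%, median 14.5). Lymphocyte and neutrophil markers, a list of other blood cells, had 4 of 10 (40%, median 3), namely Cd4, Cxcr2, Mmp9 and Elane. Inflammation and NF-kB genes had 13 of 33 (39.4%, median 9) and TGF-beta and SMAD genes 8 of 21 (38.1%, median 9). Monocyte-derived macrophage genes had 7 of 19 (36.8%, median 6). Lower shares were found for ribosomal protein genes, 4 of 18 (22.2%, median 2). Interferon response genes and cell cycle genes had 4 of 21 each (19%), with medians of 3 and 9. Lipid and cholesterol genes had 4 of 23 (17.4%, median 8), and lysosome and disease-associated genes 4 of 24 (16.7%, median 5). Markers of neurons, glia and vessels had 1 of 20 (5.0%, median 4.5), the endothelial gene Pecam1. The assignment of intervals to genes changed some of these shares. When the centre had to lie inside the gene, dense chains held 6 of 17 chemokine genes (35.3%), 2 of 21 interferon response genes (9.52%) and 2 of 18 ribosomal protein genes (11.1%), against 12.3% of all genes. When any gene overlapping the chain's span was counted, they held 8 of 17 chemokine genes (47.1%) and 3 of 23 lipid genes (13%), against 14.2% of all genes. The Fc, B-cell-type and integrin signalling list had 27 of 41 under each of the 3 assignments, and under the other two its share was the highest of the lists.

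**Figure D5:**
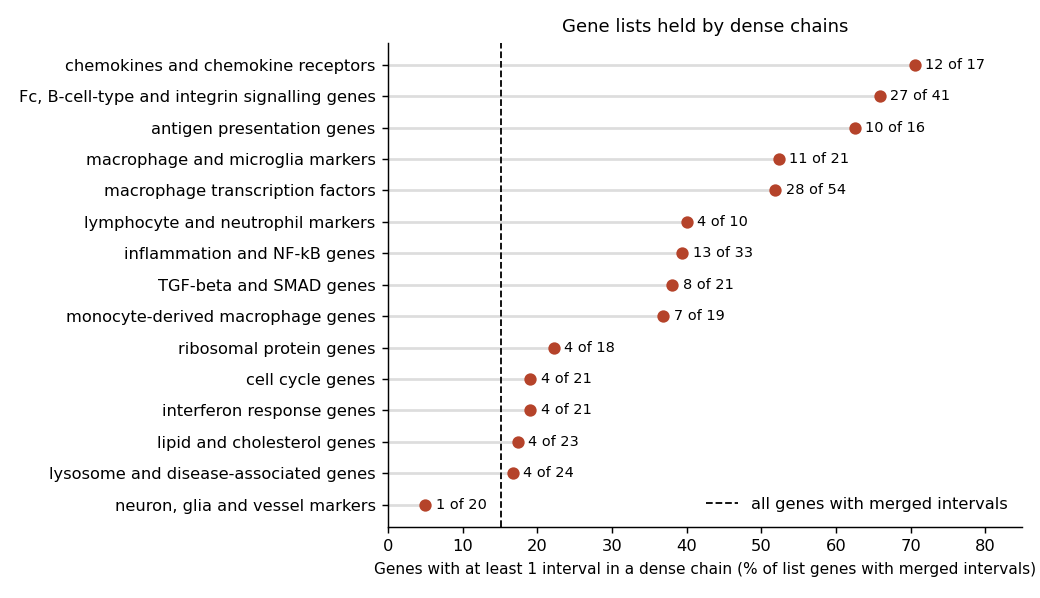
Percent of the genes of each list that had at least 1 interval in a dense chain, among list genes with merged intervals, with the counts beside the points. The dashed line marks all genes (15.2%), and with intervals assigned to the nearest gene the lists run from 12 of 17 chemokine genes (70.6%, and 35.3% with centres inside the gene) to 1 of 20 neuron, glia and vessel markers (5.0%).

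Transcription factor genes gave some of the longest runs of intervals assigned to a single gene. Etv6, an ETS-family repressor, had 23 in 1 chain and 8 in another. Mef2c, a factor of microglial and myeloid genes, had 22 in a chain at chr13:83518193-83609596, none of them at a gene end. Runx2 had 20, Cebpb, a C/EBP factor of myeloid cells, had 19 over 102 kb, and Irf2, an interferon regulatory factor, had 16 and 9 in 2 chains. Runx3 had 11 and 3. Spi1, which encodes PU.1, had 3 intervals, all in a chain of 10. Sall1, a microglial identity factor, had 12 intervals and none in a dense chain, and 7 of its 12 were YSM-listed.

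Surface receptors and their signalling genes were also held by long chains. Lyn, a Src-family kinase, had 22 intervals in 1 chain, Plcg2, a phospholipase downstream of immune receptors, had 19, Syk, a kinase of the same pathways, had 14, and Ptprc, the leukocyte phosphatase CD45, had 11. Tgfbr2, a TGF-beta receptor gene, had 21, and Smad3, which carries its signal to the nucleus, had 12. Of microglial genes, Fcrls had 13 in a chain of 13, P2ry12 9 in a chain of 12, Cx3cr1 5 in a chain of 10, and Csf1r, the receptor for the survival factor of macrophages, 3 in a chain of 15. Tmem119 had 3 in a chain of 20 that held 1 YSM-listed interval assigned to another gene. Siglech and the lysozyme gene Lyz2 had 8 and 4 intervals and none in a dense chain. Among genes associated with monocyte-derived cells, Mrc1, the mannose receptor, had 10, Ms4a7 and Ms4a4a 8 each in the same chain of 19, and Ccr2, the receptor for Ccl2, 6 in a chain of 10.

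Neighbouring genes of a family often shared a chain, so that list genes are not separate cases. Ccl3 and Ccl4 had 6 intervals each in a chain of 15 (chr11:83616622-83676066), and Ccl5 and Ccl9 had 7 and 6 in a chain of 13 just before it (chr11:83533214-83578590). Ccl2 had 8 in another chain of 13. The class II genes H2-Eb1 and H2-Aa shared a chain of 17, and Ciita, their master activator, had 10 intervals in a chain of 15. Ifngr1, a chain of the interferon-gamma receptor, had 9 and 12. Of lipid genes, the cholesterol exporters Abcg1 and Abca1 had 15 and 11.

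Few dense-chain intervals of list genes were listed. The 134 held list genes, of 343 with intervals, had 1201 dense-chain intervals, of which 0 were MDM-listed (exact upper bound 0.307%) and 1 was YSM-listed (0.0833%, 0.00211% to 0.463%). Among all dense-chain members the MDM share was 0.135%, which lies under that bound, and the YSM share was 0.617%. The listed interval, with 2 subpeaks, lay near Cd14, the lipopolysaccharide co-receptor. The other 1983 intervals of list genes included 4 MDM-listed and 21 YSM-listed. The lists were chosen with results of these data known, so their counts are descriptions.

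Defining markers of other cell types were checked in the same way. Macrophage markers had merged intervals at 12 of 12 genes and dense-chain intervals at 7, microglia markers at 9 of 10 with 4 held, and markers of monocyte-derived macrophages at 9 of 10 with 4 held, where Ms4a3 had none. Neuronal, astrocyte and oligodendrocyte markers had intervals at 4 of 6, 6 of 6 and 5 of 6 genes, and 0 were held by a dense chain. Endothelial markers had 5 of 5 with 1 held, T and B lymphocyte markers 4 of 7 with 0 held, and neutrophil markers 1 of 6, Cxcr2, which was held by a chain of 25 members. The longer list of lymphocyte and neutrophil genes above added Cd4, with 3 of 3 intervals in 2 dense chains, Mmp9 with 6 of 6 and Elane with 1 of 1. Of these intervals, 0 of 5 at Cxcr2, 0 of 1 at Elane and 4 of 6 at Mmp9 had 4 or more subpeaks. For Cd4 it was 1 of 2 and 1 of 1 in its 2 chains. Whether such cells contributed to the chains was not tested.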

How the data were processed

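Open chromatin was measured by Omni-ATAC in 4 libraries (MDM 1 and 2, YSM 1 and 2). The submitters' processing notes name Bowtie2 2.2.5, Trimmomatic 0.39, HOMER, Picard and build mm10, with no role or setting. The peaks of the 4 libraries had been joined with HOMER mergePeaks, per the file headers. The differential lists name DESeq2 in their deposited titles, and the sources used here do not give their thresholds, the peak-calling settings or any Tn5 offset. The deposited lists hold positions and subpeak numbers and no value per library. Subpeak numbers were checked on widths: single-subpeak intervals all had a width of 201 bp, and 0 exceeded 201 bp per subpeak.

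Intervals were written 1-based and chained in Python 3.11.15 with pandas 2.3.3 and numpy 2.4.6. Exact Clopper-Pearson intervals at 95% came from SciPy 1.17.1. The chaining was tested on simulated positions. Genes, promoter windows and microRNAs came from RefSeq, GRCm38.p6, which shares its main chromosomes with mm10. That table gave 21896 protein-coding genes without exons, so a gene end is either end of a gene. The 15 gene lists held 365 genes, and 1 symbol found no match.

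A chain was named for the gene to which most of its members were assigned. Chains named were the 12 with most members, the 5 longest, the 5 with the shortest mean spacing, the 10 with most YSM-listed members, those with most MDM-listed members up to 10, the 5 largest without a protein-coding gene, and up to 4 genes for each list. Other genes, among them the known markers without dense-chain intervals, the 5 chains whose members all had 4 or more subpeaks, the chains overlapping most genes and the Adgrg1 chain, were chosen after their values were seen. The members and the lists were chosen with earlier results of these data known. The 1820 intervals off chromosomes 1 to 19, 10 of them YSM-listed, were left out. Peaks' own sequences were not analysed here. Alternatives changed the stitching distance and its definition, the member minimum, the subpeak minimum, the gene ends, chromosome X, the overlap for listing and the gene assignment.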

Additional observations from a re-analysis of the deposited data

How the results depend on the processing

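Of 69 values recomputed under other settings, 41 were labelled the same as the reported one and 28 moved. A count was labelled the same within a factor of 1.5 of the reported count. A share was labelled the same inside the binomial range of the reported share. The labels are thus looser for counts than for most shares. The MDM share is the exception, with a wide range of 0.0803% to 0.214% around 0.135%. Stitching at 15000 bp gave 1378 chains in place of 978, labelled the same. Stitching at 10000 bp put 17.4% in place of 18.0% at gene ends, labelled moved. The YSM-listed share was lower in dense chains than in other chains under 12 of 12 settings, with 0.194 to 0.387 of the other chains' share. The MDM-listed share was lower under 10 of 12 (0.321 to 1.08). Both lowest ratios came from chains built from unlisted intervals, which lowers the listed share in dense chains by construction. Listing by any overlap, counted among these settings, returned the main shares. The MDM share was above that of other chains with intervals of 4 or more subpeaks (0.240% against 0.225%) and with intervals farther than 1000 bp from gene ends (0.192% against 0.178%). Stitching at 10000 bp gave 521 chains with 6563 intervals, a YSM share of 0.442%, 17.4% at gene ends and 39.4% with at most 3 subpeaks. Stitching at 15000 bp gave 20365 intervals, with 18.7% at gene ends. Keeping intervals of 2 or more subpeaks gave 512 chains, 6491 intervals, 19.7% at gene ends and 24.7% with at most 3 subpeaks. Keeping 4 or more gave 141 chains, 1670 intervals, a YSM share of 0.180%, an MDM share of 0.240% and 22.8% at gene ends. Leaving out intervals near gene ends gave 522 chains, 6778 intervals and 40.6% with at most 3 subpeaks. A minimum of 8 members gave 1728 chains and a minimum of 12 gave 581. Genes of every annotated kind put 24.1% of dense-chain intervals and 27.6% of the others at a gene end. Merging intervals within 500 bp first, chosen after seeing the data, gave 597 chains, 7809 intervals, 16.1% at gene ends and 30.9% with at most 3 subpeaks. Chains built from unlisted intervals, also chosen after seeing the data, gave a YSM share of 0.340% and an MDM share of 0.0541%. The settings with genes of every kind, listing by any overlap and other gene assignments kept the same intervals. The remaining settings changed which intervals enter by construction. Other causes were not tested. With other gene assignments, 110 (centre inside the gene) and 124 (chain span) list genes were held in place of 134, and the chemokine list had 6 and 8 of 17 in place of 12. No paired analysis was possible because the lists and the merged intervals carry no value per library, and leaving out a library was not possible for the same reason. The unknown depth limits every list here.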

Other observations

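MicroRNA genes were looked up in the spans of dense chains. Of 919 RefSeq hairpins on chromosomes 1 to 19, 83 (9.03%) lay in a dense-chain span. A dense-chain interval overlapped 13, and any merged interval 44, where dense-chain intervals were 18.2% of merged intervals. The share of the chromosomes' length in dense chains was not computed, so these counts do not show whether hairpins are frequent there. The chain of 22 members named for Rtn4rl1 on chromosome 11 holds Mir132 and Mir212, whose 3p arms share a seed. That of 10 members at Mrc1 holds Mir511, and that of 15 at Cuedc2 holds Mir146b, a microRNA induced by inflammatory signals. The mature sequences are shown because of the shared seed in the first pair, with bases 2 to 8 in capitals.
miR-132-3p: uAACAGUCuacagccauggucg
miR-212-3p: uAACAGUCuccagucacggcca
miR-511-3p: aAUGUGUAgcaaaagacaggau
miR-146b-5p: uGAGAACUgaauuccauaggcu

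The next dense chain followed within 25000 bp after 72 of the 978 dense chains (7.36%) and within 100000 bp after 180 (18.4%).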
